A study of Mus musculus with 30 samples.

Results

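Metallothioneins and zinc transport were followed through 5 genes of the mouse tibialis anterior, a shin muscle. The genes were the metallothioneins Mt1 and Mt2, the zinc-sensing transcription factor Mtf1, the zinc importer Slc39a14 and the zinc exporter Slc30a1, and all 5 were found among the 47643 genes of the expression table. They were chosen by name from earlier results of these same comparisons. Their TPM values and fitted changes are therefore given as a description, and where a call stands beside them it says where the gene lay in a fit of all genes. The table holds 30 RNA-seq libraries in 8 groups and 4 experiments, all from tibialis anterior of male C57BL/6J mice. Muscle of dexamethasone-treated mice (n = 4), dexamethasone being a synthetic glucocorticoid, was set against the muscle of its own control mice (n = 4). Muscle of mice labelled LLC cancer (n = 4) was set against its own control (n = 4); the labels do not spell LLC out. Muscle of old mice, aged 24 months (n = 3), was set against muscle of young mice, aged 6 months (n = 3). Muscle with Cyr61 siRNA (n = 4) was set against muscle with NT siRNA (n = 4), Cyr61 being a secreted matrix-associated protein and NT being left unexplained in the labels. The labels give no dose, route or duration of any treatment and no age outside the age comparison. They call the libraries biological replicates without saying whether each came from its own animal, so the tests measure the spread between these libraries.

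Metallothioneins are small cysteine-rich proteins that bind zinc and copper in the cytosol, buffer free metal and take up reactive oxygen species. MTF1 binds zinc through its zinc fingers, enters the nucleus and activates genes that carry metal response elements, among them the metallothionein genes and Slc30a1. Metallothionein genes also respond to glucocorticoids and to inflammatory cytokines, and their RNA rises in wasting skeletal muscle. SLC30A1 (ZnT1) moves zinc out of the cell across the plasma membrane. SLC39A14 (ZIP14) moves zinc, and also iron and manganese, into the cytosol, and its gene responds to inflammatory cytokines.

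In mm10 coordinates (GENCODE M21), Mt2 lay at chr8:94172664-94173568 and Mt1 at chr8:94179082-94180327, both on the plus strand, 5513 bases apart and with 0 other annotated genes between them. Mtf1 lay at chr4:124802104-124849800 (plus strand), Slc39a14 at chr14:70303469-70351425 (minus strand) and Slc30a1 at chr1:191906767-191913247 (plus strand). Promoter windows of 300 bases, 250 before and 50 after a RefSeq start on GRCm38.p6, were at hand for 4 of the 5 genes. The windows of Mt1, Mt2 and Slc30a1 are shown because these genes hold the core of the metal response element, which stands in capitals; each is on the plus strand. They span chr8:94178839-94179138 for Mt1, chr8:94172368-94172667 for Mt2 and chr1:191906531-191906830 for Slc30a1.
Mt1: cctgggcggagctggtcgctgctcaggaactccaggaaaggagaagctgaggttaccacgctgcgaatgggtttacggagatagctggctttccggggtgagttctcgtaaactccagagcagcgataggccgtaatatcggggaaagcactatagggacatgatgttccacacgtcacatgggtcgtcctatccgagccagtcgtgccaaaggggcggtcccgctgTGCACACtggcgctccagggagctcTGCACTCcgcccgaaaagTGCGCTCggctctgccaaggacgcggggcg
Mt2: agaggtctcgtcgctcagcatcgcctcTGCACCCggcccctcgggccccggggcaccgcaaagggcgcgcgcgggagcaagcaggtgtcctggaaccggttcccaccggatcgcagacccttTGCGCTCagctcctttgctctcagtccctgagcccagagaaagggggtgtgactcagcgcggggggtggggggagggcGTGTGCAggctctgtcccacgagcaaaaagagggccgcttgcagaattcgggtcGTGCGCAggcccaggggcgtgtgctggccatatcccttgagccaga
Slc30a1: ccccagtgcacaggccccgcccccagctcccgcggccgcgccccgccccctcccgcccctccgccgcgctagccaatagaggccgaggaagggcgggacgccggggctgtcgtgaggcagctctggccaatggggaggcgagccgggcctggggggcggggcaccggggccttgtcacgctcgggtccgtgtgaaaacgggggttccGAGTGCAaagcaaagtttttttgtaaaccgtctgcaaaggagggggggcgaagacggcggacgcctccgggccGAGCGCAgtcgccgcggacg

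The core was searched as TGCACNC or TGCGCNC on both strands. Mt2 held 4 cores, Mt1 held 3, Slc30a1 held 2 and Mtf1 held 0. Of 32851 mouse windows of the same length, 25.7% held at least 1 core, 7.11% at least 2, 1.97% at least 3 and 0.517% at least 4. Counted from the RefSeq start, the Mt2 cores began at bases -223, -128, -50 and 5, the last pair on the minus strand. The Mt1 cores began at bases -23, 3 and 21, and the Slc30a1 cores at bases -43 and 31 on the minus strand. A glucocorticoid response element palindrome, GNACA followed after 3 bases by TGTNC, occurred once, in Mt1 from base -94, and 0.475% of all windows held such a palindrome. The glucocorticoid hexamer AGAACA occurred in Mtf1 only, among the 4 windows, and in 19% of all windows. The STAT motif TTCNNNGAA occurred in none of the 4 and in 8.3% of all windows. The NRF2 motif TGACNNNGC occurred in Mt2 and Slc30a1, each 1 match, and in 12.4% of all windows. These matches overlapped 0 of the metal response cores. GENCODE M21 also has a start 129 bases past its first start of Mt1 and 196 bases past its first start of Mt2. Those first starts are not the same bases as the RefSeq starts from which positions are counted here. The windows do not reach the further starts.

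Depth, worked out from the steps between low TPM values, was 27508864 to 54946370 reads per library. Mt1 rested on 109 to 5141 reads per library, Mt2 on 32 to 6377, Mtf1 on 421 to 1357, Slc39a14 on 280 to 3829 and Slc30a1 on 204 to 1150. The 32 reads were those of Mt2 in young replicate 3. Stretches of 50 bases of Mt1, Mt2, Mtf1 and Slc30a1 transcripts were shared with 0 other genes, and 0.187% of those of Slc39a14 were shared. Genes on the opposite strand overlap Mt2 (Gm45774), Mtf1 (1110065P20Rik, at a mean of 14.4 TPM) and Slc30a1 (1700034H15Rik, at 0.0452 TPM). The sources used here do not give the strand setting of the count, so reads of overlapping genes may not have been told apart. The 5 muscle fibre markers summed to at least 42841 TPM in every library. TPM adds up to the same total in each library, and mitochondrially encoded genes took 34 to 41.5% of it after dexamethasone against 46.3 to 50.7% in its control. The median of all genes tested was not at 0: it was 0.33 on the log2 scale for dexamethasone, -0.05 for LLC, 0.14 for old age and 0.07 for Cyr61 siRNA. Changes are given as fitted on log2(TPM + 1) and, where it matters, after median-of-ratios scaling, which put these medians between -0.01 and 0.02. In muscle as a whole, fewer cells of a type and less RNA per cell cannot be told apart.

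Both metallothioneins stood far higher after dexamethasone than in its control. Mt1 had 214, 136, 239 and 405 TPM in dexamethasone muscle, against 41.2, 48.3, 46.5 and 40.8 TPM in control muscle. Mt2 had 296, 131, 273 and 399 TPM in dexamethasone muscle, against 33.4, 47.1, 35.1 and 21.5 TPM in control muscle. Every dexamethasone library lay above every control library for both genes, with replicate 4 the highest and replicate 2 the lowest of the treated libraries. The log2 change was 2.36 for Mt1 (SE 0.26, adjusted p = 0.000812) and 2.91 for Mt2 (SE 0.32, adjusted p = 0.000812). After median-of-ratios scaling the changes were 2.00 for Mt1 (adjusted p = 0.00465) and 2.55 for Mt2 (adjusted p = 0.00476). Mt3, a metallothionein best known from brain, had 29.7, 16.2, 33.3 and 18.9 TPM in dexamethasone muscle, against 11.5, 6.41, 11.4 and 8.22 TPM in control muscle. Its groups also did not overlap, and its change of 1.27 (adjusted p = 0.00575) became 0.93 after scaling (adjusted p = 0.0831). Mt4, best known from stratified epithelium, was listed at 0.0885, 0, 0.294 and 0 TPM in dexamethasone muscle and at 0 in each control library.

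**Figure D1:**
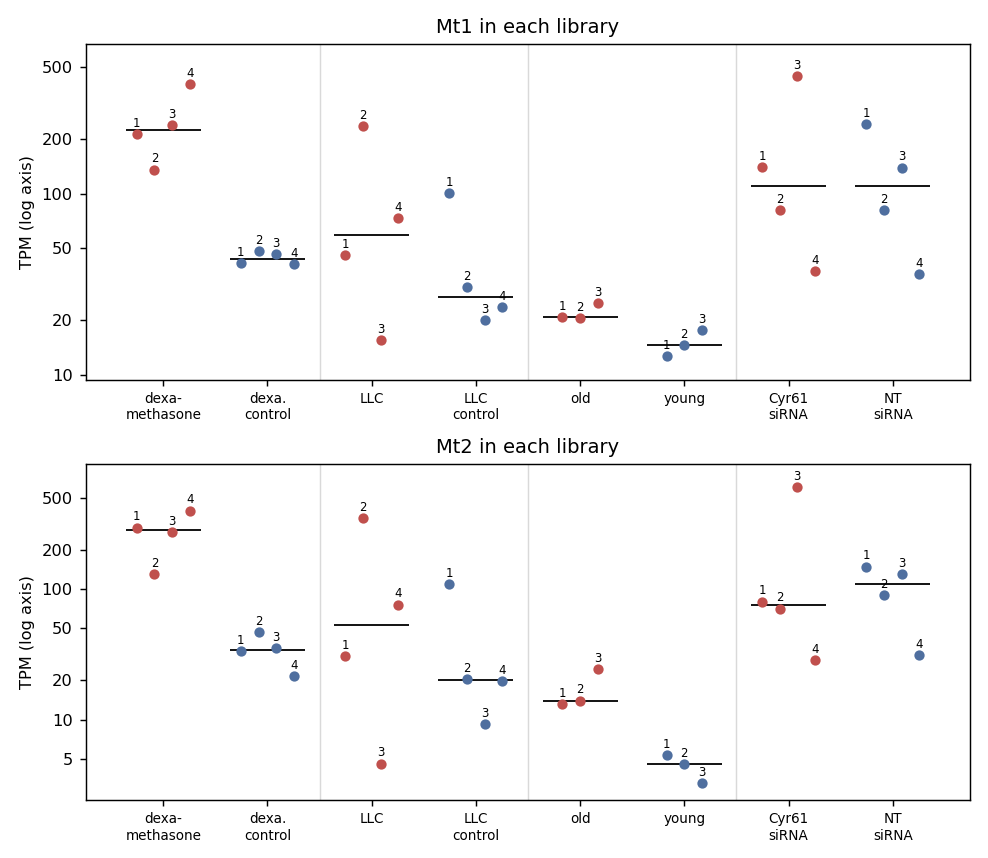
TPM of Mt1 (upper panel) and Mt2 (lower panel) in each of the 30 libraries on a log axis; numbers mark replicates, lines mark group medians, and each experiment's control, young or NT group is in blue. The dexamethasone libraries, at 136 to 405 TPM for Mt1 and 131 to 399 TPM for Mt2, lie above all of their control libraries, while the LLC and siRNA groups are spread over a wide range.

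The importer, the exporter and the metal sensor differed much less after dexamethasone. Slc39a14 had 3.37, 6.47, 6.27 and 15.5 TPM in dexamethasone muscle, against 2.57, 2.60, 3.53 and 3.42 TPM in control muscle. Dexamethasone replicate 4 was the highest and replicate 1 lay within the control range. The log2 change of Slc39a14 was 0.98 (SE 0.32, adjusted p = 0.0380). It was 0.68 after scaling (adjusted p = 0.178), and 0.63 without dexamethasone replicate 4 (adjusted p = 0.0568). Slc30a1 had 6.21, 11.8, 6.87 and 7.34 TPM in dexamethasone muscle, against 4.89, 5.64, 5.65 and 5.99 TPM in control muscle. Its groups did not overlap, but its change of 0.43 (SE 0.17, adjusted p = 0.0676) was close to the median of all genes and became 0.11 after scaling (adjusted p = 0.608). Mtf1 had 3.38, 8.18, 5.19 and 6.49 TPM in dexamethasone muscle, against 3.26, 3.76, 3.98 and 4.59 TPM in control muscle. The groups overlapped, and its change was 0.43 as fitted (SE 0.21, adjusted p = 0.109) and 0.12 after scaling (adjusted p = 0.636). Without dexamethasone replicate 1, Mtf1 (0.63, adjusted p = 0.00665) and Slc30a1 (0.53, adjusted p = 0.0189) were also called.

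As fitted, 3 of the 5 genes were called higher after dexamethasone, where 35.9% of 11944 genes were called higher and 1.51% lower. After scaling 2 of the 5 were called higher, where 4.39% of genes were called higher and 4.74% lower. The rule that chose the genes used this contrast, so nothing is read from these shares.

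**Figure D2:**
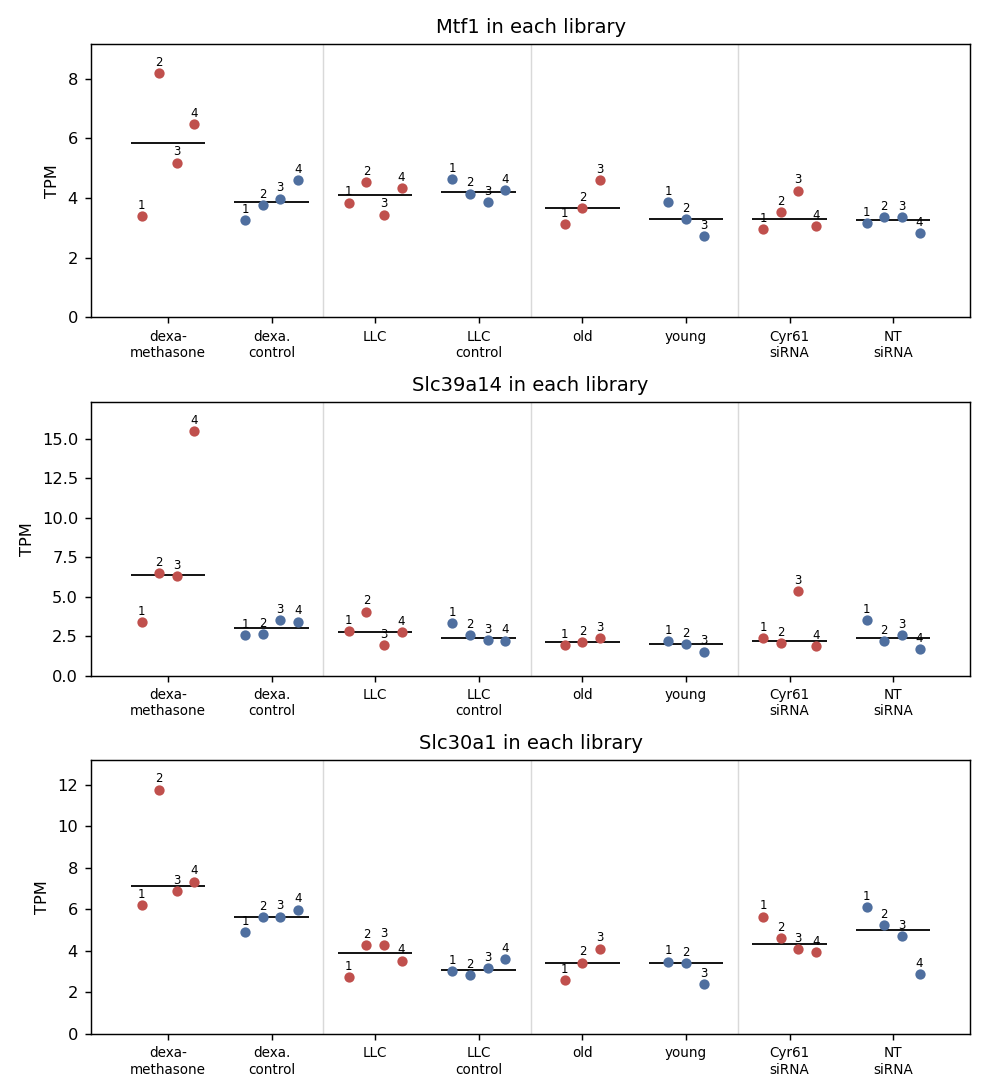
TPM of Mtf1, Slc39a14 and Slc30a1 in each of the 30 libraries, with axes that start at 0; numbers mark replicates, lines mark group medians, and each experiment's control, young or NT group is in blue. Slc39a14 reaches 15.5 TPM in dexamethasone replicate 4 and 5.35 TPM in Cyr61 siRNA replicate 3, and Mtf1 stays between 2.72 and 8.18 TPM throughout.

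Of the other zinc transporters, 7 of 15 tested were called higher after dexamethasone as fitted and 0 of 15 after scaling. The called exporters of the SLC30 family were Slc30a5 and Slc30a6, which load zinc into the secretory pathway, 2 of the 6 tested. Slc30a5 averaged 12.3 ± 2.17 TPM in dexamethasone muscle and 8.15 ± 0.517 TPM in control muscle (SD, n = 4 each), a log2 change of 0.52 that became 0.19 after scaling (adjusted p = 0.199). The called importers of the SLC39 family were Slc39a1, Slc39a6, Slc39a7, Slc39a11 and Slc39a13, 5 of the 9 tested. Slc39a7, which releases zinc from the endoplasmic reticulum, averaged 50.4 ± 6.97 TPM in dexamethasone muscle and 36.1 ± 3.06 TPM in control muscle (SD, n = 4 each), a change of 0.46 that became 0.11 after scaling (adjusted p = 0.519). The median change of the listed exporters was 0.37 and that of the listed importers 0.42, against 0.33 for all genes. With scaling, 4 of the 16 zinc transporters and Mt3 together had an unadjusted p under 0.05, where 2834 of all 11972 genes did.

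Copper and iron genes gave a background from other metals. Of the copper-handling genes 5 of 8 were called higher as fitted and 0 after scaling, with a median of 0.34 as fitted. Of the iron-handling genes 5 of 10 were called higher and 1 lower as fitted, and 1 higher and 1 lower after scaling. The gene that rose under both was Hmox1, the haem-degrading oxygenase, with 33.5, 45.0, 57.0 and 35.8 TPM in dexamethasone muscle, against 13.6, 10.8, 13.9 and 9.32 TPM in control muscle (log2 change 1.40 after scaling, adjusted p = 0.00213). The gene that fell under both was Tfrc, the transferrin receptor, with 37.5, 31.2, 73.8 and 50.5 TPM in dexamethasone muscle, against 128, 110.1, 81.3 and 98.5 TPM in control muscle (-1.52 after scaling, adjusted p = 0.00976). Of the NRF2 target genes 5 of 8 were called higher as fitted, and after scaling only Hmox1, which stands on both lists.

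Genes of the inputs that metallothionein genes are known to answer were read from the same libraries. Of 12 glucocorticoid-responsive genes, 3 were called higher as fitted and 1, Fkbp5, after scaling, where 35.9% and 4.39% of all genes were called higher. The median change of these 12 genes was 0.21, below the 0.33 of all genes, and -0.14 after scaling. Fkbp5, a co-chaperone of the glucocorticoid receptor, had 9.90, 28.7, 16.7 and 18.4 TPM in dexamethasone muscle, against 5.34, 6.36, 6.06 and 6.501 TPM in control muscle (1.04 after scaling, adjusted p = 0.00677). Dexamethasone replicate 1 was the lowest treated library for Fkbp5 while it was the second highest for Mt2. Of 8 genes of IL-6-type signalling, 5 were called higher as fitted and 2, Lcn2 and Serpina3n, after scaling. Lcn2, an iron-siderophore carrier of the acute phase, had 77.0, 136, 114 and 98.8 TPM in dexamethasone muscle, against 0.562, 0.598, 0.906 and 0.547 TPM in control muscle (5.74 after scaling). Serpina3n, a protease inhibitor of the acute phase, had 45.3, 34.8, 71.7 and 61.8 TPM in dexamethasone muscle, against 9.998, 7.64, 8.17 and 5.62 TPM in control muscle (2.25 after scaling, adjusted p = 0.0015). Whether Lcn2 and Serpina3n rose through a cytokine or through the glucocorticoid itself was not tested. The part of either input in the metallothionein values was not tested.

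Markers of other cells also differed after dexamethasone, some higher and some lower. All 6 macrophage markers were called higher after dexamethasone, 4 of them also after scaling. Their sum was 900 to 2224 TPM in dexamethasone muscle, against 210.1 to 381 TPM in control muscle. The sum of 900 TPM, the lowest of the treated libraries, was that of replicate 4, which had the most Mt1 and Mt2. Of 3 neutrophil markers tested, S100a8 and S100a9 were called higher and Retnlg lower under both; the list summed to 10.8 to 85.4 TPM in dexamethasone muscle, against 7.16 to 35.5 TPM in control muscle, and Ly6g, Elane and Mpo averaged under 0.1 TPM in both groups. Of the adipocyte markers 3 of 4 were called higher as fitted and 1 after scaling, and they summed to 40.7 to 50.1 TPM in dexamethasone muscle, against 19.3 to 40.5 TPM in control muscle. Of the 5 endothelial markers 1 was called lower as fitted and 5 after scaling, and they summed to 121 to 175 TPM in dexamethasone muscle, against 160.3 to 180 TPM in control muscle. Of the 5 fibroadipogenic progenitor markers 1 was called higher as fitted and 0 after scaling. Of the 5 red blood cell markers 0 were called under both. The part of these cells in the metallothionein values was not tested.

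Under LLC the metallothioneins differed more between libraries of a group than between the groups. Mt1 had 45.7, 236, 15.6 and 73.1 TPM in LLC muscle, against 101, 30.4, 20.1 and 23.7 TPM in control muscle. Mt2 had 30.7, 348, 4.59 and 75.9 TPM in LLC muscle, against 109, 20.4, 9.19 and 19.6 TPM in control muscle. The groups overlapped throughout: LLC replicate 2 was the highest and LLC replicate 3 the lowest of all 8 libraries, and control replicate 1 exceeded 3 of the 4 LLC libraries. The log2 change was 0.76 for Mt1 (SE 0.69, adjusted p = 0.726) and 0.82 for Mt2 (SE 1.05, adjusted p = 0.827). Without LLC replicate 2 the change was 0.10 for Mt1 and -0.15 for Mt2, without LLC replicate 3 it was 1.38 and 1.84, and without control replicate 1 it was 1.26 and 1.502. Without both LLC replicate 2 and control replicate 1, an alternative chosen after seeing the data, it was 0.60 for Mt1 and 0.53 for Mt2. None of these was called. Mt3 had 7.601, 10.3, 0.977 and 22.4 TPM in LLC muscle, against 5.90, 16.5, 5.70 and 9.06 TPM in control muscle.

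Slc39a14 had 2.80, 4.06, 1.95 and 2.73 TPM in LLC muscle, against 3.33, 2.54, 2.23 and 2.21 TPM in control muscle (0.10, SE 0.16, adjusted p = 0.864). Its highest libraries, LLC replicate 2 and control replicate 1, were also the highest for Mt1 and Mt2 in their groups. Slc30a1 had 2.73, 4.29, 4.30 and 3.53 TPM in LLC muscle, against 3.01, 2.83, 3.15 and 3.59 TPM in control muscle (0.17, SE 0.13, adjusted p = 0.638). Mtf1 averaged 4.04 ± 0.493 TPM in LLC muscle and 4.22 ± 0.318 TPM in control muscle (SD, n = 4 each), a change of -0.05 (adjusted p = 0.903). limma called 0 of the 5 genes under LLC, where 0.295% of 10830 genes were called higher and 0.886% lower, or 1.69% and 1.57% after scaling. At an unadjusted p under 0.05 the count was also 0, where 1429 of 10830 genes stood as fitted and 2205 of 10805 after scaling. With limma voom on recovered reads, 0 of the 5 were called. Of the 16 other metallothionein and zinc transporter genes tested, 0 were called and 3 had an unadjusted p under 0.05, 5 after scaling. Of 7 copper-handling and 10 iron-handling genes 0 were called, with 0 and 3 under an unadjusted p of 0.05.

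The LLC library with least metallothionein stood apart in other ways. LLC replicate 3 gave 60.4% of its TPM to mitochondrially encoded genes, against 46.5 to 49.3% in the other LLC libraries and 41.7 to 48.7% in control libraries. Its macrophage markers summed to 35.7 TPM, against 109 to 175 TPM in the other LLC libraries. Its red blood cell markers summed to 717 TPM, where the other LLC libraries had 7806, 6086 and 2157 TPM and the control libraries 622 to 792 TPM. Fkbp5 had 32.5, 35.7, 7.30 and 29.8 TPM in LLC muscle, against 8.08, 5.97, 8.03 and 5.70 TPM in control muscle, so that LLC replicate 3 fell within the control range. After scaling, 4 of 12 glucocorticoid-responsive genes were called higher under LLC, namely Fkbp5 (1.63, adjusted p = 0.0417), Per1, Klf15 and Glul, and 0 as fitted (smallest adjusted p of the list 0.0516, that of Glul). Socs3, a feedback inhibitor of cytokine signalling named here after its values were seen, had 3.72, 16.1, 2.71 and 6.29 TPM in LLC muscle, against 9.83, 2.68, 2.22 and 2.97 TPM in control muscle. Its highest libraries were LLC replicate 2 and control replicate 1, those with most Mt1 and Mt2. Fkbp5 was also highest in LLC replicate 2 and, narrowly, in control replicate 1 (8.08 TPM, against 8.03 TPM in control replicate 3). Osmr, the oncostatin M receptor, was the gene of the IL-6-type list called higher under LLC as fitted (0.92, adjusted p = 0.0272) and after scaling (0.96, adjusted p = 0.0108). The neutrophil markers summed to 83.0, 95.6, 33.9 and 67.0 TPM in LLC muscle, against 4.79, 92.9, 0.985 and 0.955 TPM in control muscle, with Ly6g under 0.1 TPM in both. All control libraries but replicate 2 lay below every LLC library, and the part of these cells in the metallothionein values was not tested.

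Old muscle held more Mt2 than young muscle, at the lowest metallothionein levels of the series. Mt2 had 13.2, 14.0 and 24.5 TPM in old muscle, against 5.32, 4.56 and 3.28 TPM in young muscle. The groups did not overlap, and the log2 change was 1.72 (SE 0.21, adjusted p = 0.00141). After scaling the change of Mt2 was 1.59 and its adjusted p was 0.0590. Without young replicate 3 the change was 1.57 (adjusted p = 0.134). Mt1 had 20.9, 20.6 and 24.9 TPM in old muscle, against 12.7, 14.6 and 17.7 TPM in young muscle. Its groups did not overlap either, but its change was 0.54 (SE 0.15, adjusted p = 0.188), or 0.39 after scaling (adjusted p = 0.371). Mt3 had 1.84, 4.25 and 4.81 TPM in old muscle, against 0.936, 1.30 and 0.847 TPM in young muscle (1.13, adjusted p = 0.0514).

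The other 3 genes were close between old and young muscle. Mtf1 had 3.12, 3.67 and 4.59 TPM in old muscle, against 3.87, 3.28 and 2.72 TPM in young muscle. Slc39a14 had 1.93, 2.11 and 2.38 TPM in old muscle, against 2.20, 1.99 and 1.51 TPM in young muscle. Slc30a1 had 2.57, 3.43 and 4.11 TPM in old muscle, against 3.48, 3.39 and 2.39 TPM in young muscle. The groups overlapped for each, and the changes of 0.16, 0.12 and 0.09 (adjusted p = 0.707, 0.756 and 0.8291) lay near the 0.14 of the median gene. After scaling they were 0.03, 0.02 and -0.03. Mtf1, Slc39a14, Slc30a1 and Mt2 had the same order of libraries, highest in old replicate 3 and in young replicate 1. The mitochondrially encoded share was 51.4, 50.5 and 43.7% in the old libraries, against 48.0, 51.2 and 52.5% in the young libraries, and was thus lowest in the same libraries.

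As fitted, 1 of the 5 genes was called higher in old muscle, where 0.152% of 10511 genes were called higher and 0.019% lower. After scaling limma called 0 of the 5 and 0% of 10489 genes in each direction, with 1379 genes at an unadjusted p under 0.05, among them Mt1 and Mt2. limma voom called 0 of the 5. Of the 14 other metallothionein and zinc transporter genes tested 0 were called, with 2 at an unadjusted p under 0.05, and 3 after scaling. As fitted, 1174 of all 10511 genes stood at that unadjusted threshold. Of 7 copper-handling and 10 iron-handling genes 0 were called, with 1 and 2 at an unadjusted p under 0.05. Socs3 had 2.49, 2.72 and 2.68 TPM in old muscle, against 0.828, 1.01 and 0.670 TPM in young muscle (0.99, adjusted p = 0.0095 as fitted, 0.0590 after scaling). Fkbp5 had 9.33, 7.18 and 6.08 TPM in old muscle, against 8.17, 7.93 and 6.78 TPM in young muscle. The macrophage markers summed to 43.3 to 67.0 TPM in old muscle, against 23.6 to 37.8 TPM in young muscle, and 0 of the 4 tested were called; their part was not tested.

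With Cyr61 siRNA the metallothioneins again differed widely between libraries, in the NT siRNA group as well. Cyr61 itself had 32.9, 52.8, 45.8 and 25.5 TPM in Cyr61 siRNA muscle, against 57.0, 64.6, 67.8 and 36.8 TPM in NT siRNA muscle (-0.53, SE 0.25, adjusted p = 0.999). Mt1 had 140.3, 80.9, 448 and 37.2 TPM in Cyr61 siRNA muscle, against 242, 81.0, 139 and 35.8 TPM in NT siRNA muscle. Mt2 had 80.1, 70.8, 604 and 28.5 TPM in Cyr61 siRNA muscle, against 148, 89.6, 130.4 and 31.0 TPM in NT siRNA muscle. Replicate 4 was the lowest library of each group for both genes, and Cyr61 siRNA replicate 3 was the highest of all. The log2 change was 0.24 for Mt1 (SE 0.76) and 0.22 for Mt2 (SE 0.84), and without Cyr61 siRNA replicate 3 it was -0.40 for Mt1 and -0.64 for Mt2. Slc39a14 had 2.35, 2.06, 5.35 and 1.88 TPM in Cyr61 siRNA muscle, against 3.52, 2.18, 2.56 and 1.68 TPM in NT siRNA muscle, and its order of libraries was that of Mt2 in both groups. Slc30a1 had 5.65, 4.60, 4.07 and 3.95 TPM in Cyr61 siRNA muscle, against 6.13, 5.25, 4.71 and 2.87 TPM in NT siRNA muscle. Mtf1 averaged 3.45 ± 0.589 TPM in Cyr61 siRNA muscle and 3.18 ± 0.257 TPM in NT siRNA muscle (SD, n = 4 each).

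limma called 0 of the 5 genes, each at an adjusted p of 0.999, and 0% of 11006 genes in each direction as fitted, with 109 genes at an unadjusted p under 0.05. After scaling it called 0% of 10983 genes in each direction, with 184 at an unadjusted p under 0.05, and limma voom called 0 of all genes. The count was 0 as well for the 14 other metallothionein and zinc transporter genes, the 7 copper-handling and the 10 iron-handling genes, with 0 in each list at an unadjusted p under 0.05. In Cyr61 siRNA replicate 3 Serpina3n stood at 44.4 TPM and Socs3 at 8.37 TPM, against 3.69 to 6.99 and 2.09 to 2.53 TPM in the other Cyr61 siRNA libraries. Its neutrophil markers summed to 83.5 TPM, against 10.5 to 20.3 TPM in the others, and its red blood cell markers to 3913 TPM, against 824 to 1358 TPM. NT siRNA replicate 3 had the same traits, with a neutrophil sum of 56.9 TPM, against 7.29 to 23.7 TPM in the other NT siRNA libraries, and a red blood cell sum of 4608 TPM, against 569 to 1707 TPM, but it did not hold the most Mt1 or Mt2 of its group. Fkbp5 was low in replicate 4 of each group, at 11.02 TPM with Cyr61 siRNA and 11.9 TPM with NT siRNA, against 32.3 to 36.6 and 29.3 to 41.0 TPM in the other libraries. In NT siRNA muscle Socs3 was highest in replicate 3, at 5.77 TPM, while Mt1 and Mt2 were highest in replicate 1. The part of these values in those of Mt1 and Mt2 was not tested.

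**Figure D3:**
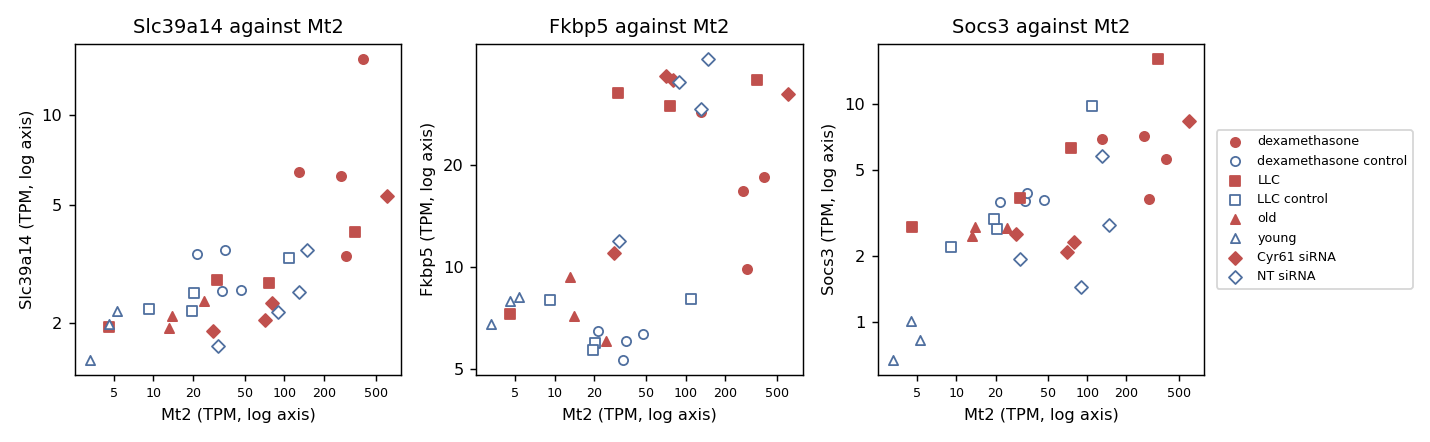
TPM of Slc39a14, Fkbp5 and Socs3 (vertical, log axes) against TPM of Mt2 (horizontal, log axis) in the 30 libraries; filled red symbols are dexamethasone, LLC, old and Cyr61 siRNA, and open blue symbols of the same shape are the group each was set against. Slc39a14 and Socs3 are high in the LLC and Cyr61 siRNA libraries with most Mt2 (348 and 604 TPM). Dexamethasone replicate 1, with 296 TPM of Mt2, has 3.37 TPM of Slc39a14 and 3.66 TPM of Socs3, each within its control range. The other dexamethasone libraries lie above their controls for both. The library with 109 TPM of Mt2, LLC control replicate 1, has 9.83 TPM of Socs3 and 8.08 TPM of Fkbp5, each the highest of its group. For Fkbp5 this is narrow, with 8.03 TPM in LLC control replicate 3.

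Across the 8 groups the order of the mean levels was nearly the same for Mt1 and Mt2. Mt1 averaged 248 ± 113 TPM in dexamethasone, 177 ± 186 in Cyr61 siRNA, 124 ± 88.8 in NT siRNA, 92.6 ± 98.3 in LLC, 44.2 ± 3.79 in dexamethasone control, 43.7 ± 38.2 in LLC control, 22.1 ± 2.43 in old and 15.005 ± 2.53 in young muscle (SD). Mt2 averaged 275 ± 111 TPM in dexamethasone, 196 ± 273 in Cyr61 siRNA, 115 ± 158 in LLC, 99.8 ± 52.1 in NT siRNA, 39.6 ± 46.6 in LLC control, 34.3 ± 10.5 in dexamethasone control, 17.2 ± 6.30 in old and 4.39 ± 1.03 in young muscle (SD). Of the neighbours in these orders only old and young did not overlap, for either gene. Mtf1 averaged from 5.81 ± 2.03 TPM in dexamethasone to 3.18 ± 0.257 TPM in NT siRNA muscle, and all neighbours overlapped. Slc39a14 averaged from 7.89 ± 5.24 TPM in dexamethasone to 1.90 ± 0.353 TPM in young muscle, and all neighbours overlapped. Slc30a1 averaged from 8.05 ± 2.53 TPM in dexamethasone to 3.09 ± 0.607 TPM in young muscle, and only dexamethasone and its control, the 2 highest, did not overlap. The 4 experiments were not made to be compared in level, so this order is a description.

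The spread within groups was large for the metallothioneins in the LLC and siRNA experiments. Among the 10830 genes tested in the LLC experiment, Mt2 ranked 2nd and Mt1 16th by the SD of log2(TPM + 1) in the LLC group, and 10th and 30th in the LLC control group. The SD of Mt2 was 2.49 in LLC muscle, where the median gene had 0.216, and its highest library was 75.8 times its lowest. Among 11006 genes in the siRNA experiment Mt2 ranked 28th and Mt1 43rd in the Cyr61 siRNA group, and 97th and 72nd in the NT siRNA group. In dexamethasone muscle Slc39a14, at rank 61 of 11944, had a wider spread than Mt2 at 137 and Mt1 at 187. In the dexamethasone control Mt1 was ordinary, at rank 5724 with an SD of 0.12, and its 4 libraries lay within 40.8 to 48.3 TPM. Among 10511 genes in the age experiment Mt1 ranked 6297th in old and 2547th in young muscle, and Mt2 ranked 326th in old and 1266th in young muscle.

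Mt1 and Mt2 mostly put the libraries of a group in the same order. The order was identical in 5 of 8 groups, namely LLC, LLC control, dexamethasone control, Cyr61 siRNA and NT siRNA, and it was opposite in young muscle. Slc39a14 shared the order of Mt2 in 4 groups, Mtf1 in 3 and Slc30a1 in 2, the old and young groups among them each time. In those age groups the factors of the median-of-ratios scaling had this order too. They were 0.954, 1.036 and 1.196 in the old libraries and 1.032, 0.969 and 0.852 in the young libraries, by replicate. How many of all genes had the order of Mt2 there was not counted. A gene with the order of Mt2 in all of LLC, LLC control, Cyr61 siRNA and NT siRNA was rare. Of 10926 genes at 1 TPM or more in at least 15 of all 30 libraries, 7 had that order, Mt1 among them. Among the other 6, chosen after their values were seen, were Med1, Mast2, Ddx51 and Atp6v1b2. The 4 groups were picked after seeing Mt1 follow Mt2 there, so the count describes these libraries.

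**Figure D4:**
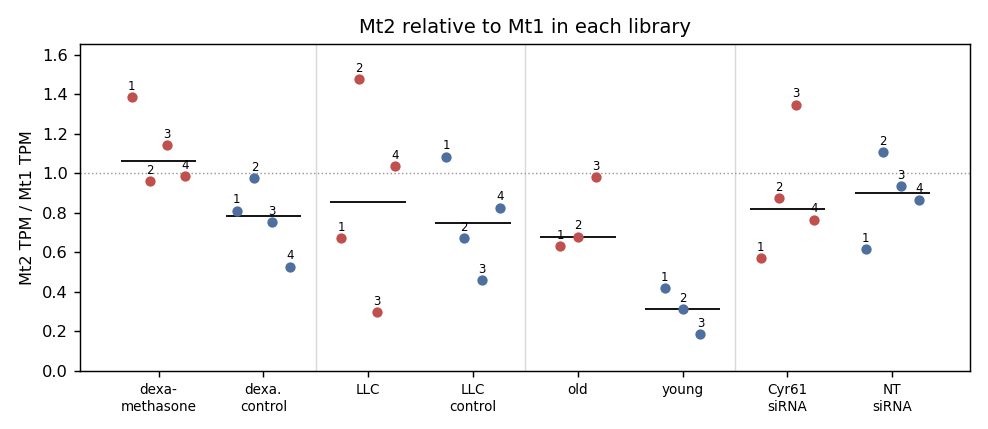
Ratio of Mt2 to Mt1 TPM in each library, with the axis from 0; numbers mark replicates, lines mark group medians, each experiment's control, young or NT group is in blue, and the dotted line marks equal TPM. Old libraries lie at 0.630 to 0.981 and young libraries at 0.185 to 0.419, and the highest ratio, 1.48, is that of LLC replicate 2.

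The ratio of Mt2 to Mt1 TPM was not fixed. The ratio was 0.961 to 1.39 in dexamethasone muscle, against 0.527 to 0.974 in its control, which overlapped. It was 0.630 to 0.981 in old muscle, against 0.185 to 0.419 in young muscle, with no overlap. In LLC muscle it was 1.48 in replicate 2, which had the most of both genes, and 0.295 in replicate 3, which had the least, against 0.457 to 1.08 in LLC control muscle. It was 0.571 to 1.347 in Cyr61 siRNA muscle, against 0.614 to 1.11 in NT siRNA muscle, where the lowest ratio was that of replicate 1, the library with most of both genes.

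**Figure D5:**
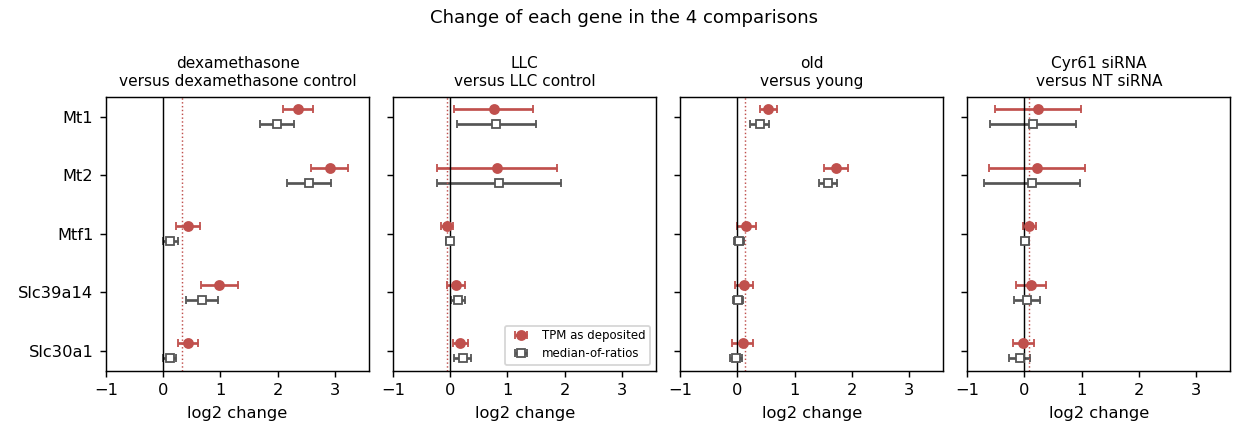
Log2 change of each gene, with the first-named group over the second, in the 4 comparisons: filled circles as fitted on deposited TPM, open squares after median-of-ratios scaling, bars 1 SE, and a dotted line at the median of all genes as fitted. Mt1 and Mt2 stand at 2.36 and 2.91 in the dexamethasone comparison and Mt2 at 1.72 in the age comparison, while the bars of both reach or come close to 0 for LLC and siRNA.

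The difference between responses was fitted over 22 libraries, with the rule having used the same contrasts. The dexamethasone response minus the LLC response was 1.60 for Mt1 (SE 0.75, adjusted p = 0.0998) and 2.09 for Mt2 (SE 1.13, adjusted p = 0.141). After median-of-ratios scaling these were 1.17 for Mt1 (adjusted p = 0.407) and 1.67 for Mt2 (adjusted p = 0.446). As fitted, they depended on single libraries. Without LLC replicate 2 they were 2.25 for Mt1 (adjusted p = 0.0131) and 3.06 for Mt2 (adjusted p = 0.0206). Without LLC replicate 3 they were 0.98 for Mt1 (adjusted p = 0.254) and 1.07 for Mt2 (adjusted p = 0.362), and without LLC control replicate 1 they were 1.10 (adjusted p = 0.222) and 1.41 (adjusted p = 0.298). The dexamethasone response minus the old-age response was 1.82 for Mt1 (SE 0.81, adjusted p = 0.298) and 1.19 for Mt2 (SE 1.22, adjusted p = 0.627). The LLC response minus the old-age response was 0.22 for Mt1 (adjusted p = 0.902) and -0.90 for Mt2 (adjusted p = 0.739). limma called 0 of the 5 genes in each of these, where 27.6%, 2.06% and 0.0484% of 12392 genes were called. After scaling it again called 0 of the 5 in each, where 6.29%, 2.85% and 0.231% of 12128 genes were called. At an unadjusted p under 0.05 there were 3 of 5 for dexamethasone minus LLC, 2 for dexamethasone minus old age and 0 for LLC minus old age as fitted. Of all 12392 genes, 5802, 1837 and 1462 stood at that threshold in these fits. The count among the 5 genes was 0 in each after scaling and in both limma voom fits, which also called 0 of the 5. So a larger response to dexamethasone than to LLC or old age was not called for Mt1 or Mt2 with all libraries in the fit. This fit gave a gene the same spread in every library, the wide LLC groups included. Within the dexamethasone and age experiments the SEs were 0.26 and 0.15 for Mt1, and 0.32 and 0.21 for Mt2. The missing call against old age therefore does not decide whether those responses differ. Of the 16 other metallothionein and zinc transporter genes, 8 were called in dexamethasone minus LLC as fitted and 1 after scaling.

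The genes whose log2 changes over the 4 comparisons were most like those of each gene were found among 7964 candidates with a mean of at least 5 TPM in a group, by the root mean square difference. For Mt1 they included Serpina3n (0.32), Gpx3, Lrg1 and Sln. For Mt2 they were Serpina3n (0.51), Sln, Mt1 (0.65), Cdkn1a and Gpx3. Serpina3n had changes of 2.59 for dexamethasone, 0.92 for LLC, 0.89 for old age and 0.69 for Cyr61 siRNA, where Mt1 had 2.36, 0.76, 0.54 and 0.24. For Mtf1 they were Gtpbp1, Stam, Dctn5, Utp3 and Zzz3, for Slc39a14 Tmem38b, Tnfrsf19, Ephx1, Map1lc3a and Pde4dip, and for Slc30a1 Rnf111, Bcas3, Six4, Usp36 and Sde2. The differences were smaller for these 3 genes, at 0.01 for Gtpbp1, 0.06 for Tmem38b and 0.02 for Rnf111. The changes of Mtf1 were 0.43, -0.05, 0.16 and 0.08, close to the medians of all genes at 0.33, -0.05, 0.14 and 0.07. How many candidates lie as close to any such gene was not counted, so shared regulation is not read from these differences.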

How the data were processed

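RNA of 30 tibialis anterior samples was made into libraries with a TruSeq stranded mRNA kit and run on a NovaSeq, per the labels' protocols. The authors deposited TPM per gene, and each column sums to 1000000. The build was mm10, per the submitters' processing notes; the sources used here do not give the aligner, counter, strand setting, annotation or filters. The 5 genes and the gene lists were chosen with earlier results of these data known.

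Groups came from the labels. Genes that reached 1 TPM in at least n libraries, n being the size of the smaller group, were fitted as log2(TPM + 1) with limma 3.58.1 (R 4.3.3, variance trend) within each experiment, two-sided; a call is an adjusted p (Benjamini-Hochberg, all genes tested) under 0.05. A fold change on this scale understates that of low genes. The genes, all listed members, and list genes called both as fitted and after median-of-ratios scaling, at most 4 per list and comparison, were named by rule; other listed genes are named where a count of 5 or fewer, a marker list or another value called for it, after their values were seen. For each of the 5 genes, the 5 genes with the most similar changes were named; 1 gene is not reported here.

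Of 23193 genes above 0, whole reads were recovered (tolerance 0.05 read) for 15816 with the annotated exon length and for another 7376, Mt1 and Mt2 among them, with the shortest length that fits, so that reads of the second set may be low by a whole factor. Read numbers cover counting error only, since no molecular identifiers were used. Sequences came from RefSeq (GRCm38.p6) and coordinates from GENCODE M21. Alternatives were other pseudocounts, filters, scalings and fits, a replicate block, leaving out each library and, added after seeing the data, limma voom on recovered reads and LLC without LLC replicate 2 and control replicate 1. The fit was tested on simulated data. Figures were drawn with matplotlib 3.10.9 under Python 3.11.15, from tables made with pandas 2.3.3 and numpy 2.4.6.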

Additional observations from a re-analysis of the deposited data

Results flagged for a closer look

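In groups of 4 libraries, the gap from a library to its nearest neighbour was taken as a share of the group's range. The library was marked when this share passed the critical value of Dixon's test. Of 30 combinations of gene and group, 4 were marked. Chance marks about 1 in 20 for independent, normally distributed values. These were plain TPM, and Mt1 and Mt2 were high in the same libraries, so the count is not set against that rate. The 4 marks fell on 2 libraries. LLC control replicate 1 stood at 100.66 TPM for Mt1, where the other control libraries had 20.1 to 30.4 TPM, and at 109.11 TPM for Mt2, where they had 9.19 to 20.4 TPM. Cyr61 siRNA replicate 3 stood at 603.69 TPM for Mt2, where the other libraries of the group had 28.5 to 80.1 TPM, and at 5.3533 TPM for Slc39a14, where they had 1.88 to 2.35 TPM.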

How the results depend on the processing

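Mt1 and Mt2 were called higher after dexamethasone under all 12 alternatives and all 8 fits that left out a library, with log2 changes of 2.00 to 2.38 and 2.55 to 2.94 under the alternatives. The number of the 5 genes called after dexamethasone was 3 as fitted, 5 with all 8 groups in 1 fit, 5 with the replicate block, 2 with no filter, a 5 TPM filter, median-of-ratios scaling, rescaling without mitochondrially encoded genes, quantile normalization and both voom fits, and 2 to 5 when each library was left out. Slc39a14 fell under the 5 TPM filter and lost its call in the other 6 of these (adjusted p = 0.0730 to 0.186), and when any library but dexamethasone replicate 1 was left out (adjusted p = 0.0567 to 0.0944). The number called in old muscle was 1 as fitted and 0 with no filter, median-of-ratios scaling, rescaling without mitochondrially encoded genes, quantile normalization, all 8 groups in 1 fit and both voom fits, and 0 to 1 when each library was left out, 0 without young replicate 3; the adjusted p of Mt2 ranged from 2.2e-11 to 0.577 and its change from 1.57 to 1.92. The number called for the dexamethasone minus LLC response was 0 as fitted, 1 with the replicate block and 0 to 3 when each library was left out (2 without dexamethasone replicate 1, 3 without LLC replicate 2). The other counts stayed at 0. Same-numbered libraries were not taken as pairs, since the labels tie them by number only. The deviations of same-numbered libraries correlated at 0.03 to 0.50 in the dexamethasone experiment and 0.04 to 0.37 in the LLC experiment. The correlations were 0.04 to 0.14 in the age experiment, and 0.50, 0.28, 0.32 and 0.09 in the siRNA experiment. A pairing is therefore not excluded, and the SEs of the unblocked fits would then include spread between pairs. The replicate block changed no other count.

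Signs turned for changes that were not called. Mtf1 under LLC was 0.0708 without mitochondrially encoded genes, 0.0064 with quantile normalization and 0.0021 with voom at scaled library sizes. In old muscle Slc30a1 was -0.0280 with median-of-ratios scaling, -0.1028 with quantile normalization and -0.0799 with scaled voom, Mtf1 -0.0337 and -0.0008 and Slc39a14 -0.0875 and -0.0231 with the last pair. Leaving out each library gave, for LLC, Mt2 -0.15 to 1.84, Slc39a14 -0.0335 to 0.23 and Mtf1 -0.10 to 0.0053; for old age, Slc30a1 -0.0380 to 0.23; and for Cyr61 siRNA, Mt1 -0.40 to 0.78, Mt2 -0.64 to 0.81, Slc39a14 -0.15 to 0.25 and Slc30a1 -0.20 to 0.10. The cause was not tested. Mt2 in young muscle rested on few reads, 32 to 47 as recovered, a number that may be low by a whole factor. The part of this depth in its values was not tested.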
